A study of Mus musculus with 16 samples.

Results

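The proximal tubule is the first stretch of the nephron after the glomerular filter, and it takes back most of the sugar, amino acids, bicarbonate, organic acids and small proteins that the filter lets through. Its cells carry a dense brush border of microvilli, in which endocytic receptors, sodium-coupled carriers and peptidases sit, while other carriers hand the solutes on to the blood at the basolateral side. The 35 genes described here are 3 endocytic receptor genes, 4 carriers of sugars and monocarboxylates, 7 of amino acids and peptides, 9 of ions, acids, organic anions and vitamins together with their scaffold, 5 peptidases, and 7 enzymes or other kidney proteins. They were chosen by gene symbol for these roles, and all 35 were found among the 32989 genes of the kidney and liver tables.

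Kidney and liver RNA came from the same 8 male C57BL/6J mice, 97 weeks old. For 85 weeks 4 of them (L63, L65, L86 and L104) were kept in the regular light-dark cycle, the LD condition, and the other 4 (A75, A91, A94 and A115) in the ADV condition, a chronic jet lag in which the cycle was advanced by 8 hours every 4 days. The 16 libraries were made from poly(A) RNA, and the values are FPKM, the fragments on a gene's exons divided by their length in kilobases and by the library total. All mice were wild-type, and each mouse gave 1 kidney and 1 liver library.

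The kidney libraries held 15688495 to 18043306 fragments on genes and the liver libraries 21092501 to 24285055, and at the library totals 1 fragment on a transcript of 1 kilobase was worth 0.0508 to 0.0584 FPKM in the kidney and 0.0380 to 0.0440 FPKM in the liver. Hepatocyte markers summed to between 49.9 and 98.1 FPKM in the kidneys and to between 54484 and 67281 FPKM in the livers, so the organ labels and the data matched. The values of 1 kidney library set it apart. In the kidney of ADV mouse A115, 33.8% of the fragments on genes were mitochondrially encoded, against 9.43% to 18.02% in the other 7 kidneys, and the median tested gene lay 0.48 below the LD kidneys on the log2 scale. For this reason the kidney fold changes that are described at length are given with and without A115. The mitochondrial share also parted the other 7 kidneys by group. It was 10.7%, 13.1% and 9.43% in A75, A91 and A94, below every LD kidney (15.72% to 18.02%). The ADV side of the fold changes without A115 rests on A75, A91 and A94. The part of this share in those fold changes was not tested. In tissue RNA, fewer proximal tubule cells and less RNA per cell cannot be told apart.

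The 35 transcripts differ widely in base composition, from 38.9% G and C in Pter to 62.9% in Amn, with a median of 49.1% against 50.3% over the genes tested in the kidney. Because the kidney levels are described below against this property, a coding stretch is shown for the pair of members richest in G and C and for the pair poorest in them. Each stretch is 120 bases within 1 coding exon, taken where its G and C content was closest to that of the whole transcript, and G and C are in capitals. The Amn stretch lies at chr12:111274366-111274485 (exon 5, plus strand, GRCm38), the Ttc36 stretch at chr9:44801615-44801734 (exon 2, minus strand), the Slc5a8 stretch at chr10:88902414-88902533 (exon 5, plus strand) and the Pter stretch at chr2:12978329-12978448 (exon 2, plus strand).
Amn: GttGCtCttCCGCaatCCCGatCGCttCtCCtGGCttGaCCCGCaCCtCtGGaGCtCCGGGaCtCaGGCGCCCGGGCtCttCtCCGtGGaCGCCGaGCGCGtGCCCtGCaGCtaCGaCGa
Ttc36: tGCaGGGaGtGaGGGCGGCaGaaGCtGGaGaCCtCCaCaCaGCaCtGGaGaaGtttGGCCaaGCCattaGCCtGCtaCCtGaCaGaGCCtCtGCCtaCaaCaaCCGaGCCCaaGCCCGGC
Slc5a8: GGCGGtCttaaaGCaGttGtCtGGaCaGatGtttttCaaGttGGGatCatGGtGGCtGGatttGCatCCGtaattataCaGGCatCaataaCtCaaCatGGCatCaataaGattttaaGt
Pter: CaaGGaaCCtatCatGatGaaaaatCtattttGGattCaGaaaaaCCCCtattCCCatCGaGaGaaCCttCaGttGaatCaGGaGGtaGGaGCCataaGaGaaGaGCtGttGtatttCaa
G and C made up 81 of the 120 bases in the Amn stretch and 73 in that of Ttc36, against 48 in that of Slc5a8 and 47 in that of Pter.

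In the LD kidneys the levels of the 35 genes ran over more than 4 orders of magnitude. Kap, the kidney androgen-regulated protein, stood far above the rest at 34104 ± 5584 FPKM (mean ± SD, n = 4) and took 1.70% to 2.57% of the fragments on genes in the LD kidneys. Miox, the inositol oxygenase that opens the catabolism of myo-inositol, followed at 1366 ± 176 FPKM, and Akr1c21, an aldo-keto reductase acting on steroids, at 1222 ± 34.3 FPKM. In all, 18 members had a mean of 100 FPKM or more. The lowest was Xpnpep2, a membrane-bound aminopeptidase, at 1.78 ± 0.30 FPKM. The highest members of the other groups were Lrp2, the endocytic receptor megalin, at 139 ± 20.5 FPKM, Slc5a12, a lactate carrier, at 75.7 ± 5.39 FPKM, Slc3a1, the heavy chain of the cystine carrier, at 331 ± 31.9 FPKM, Pdzk1, the scaffold under the brush border carriers, at 401 ± 36.4 FPKM, and Napsa, the aspartic peptidase napsin A, at 666 ± 71.9 FPKM.

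**Figure D1:**
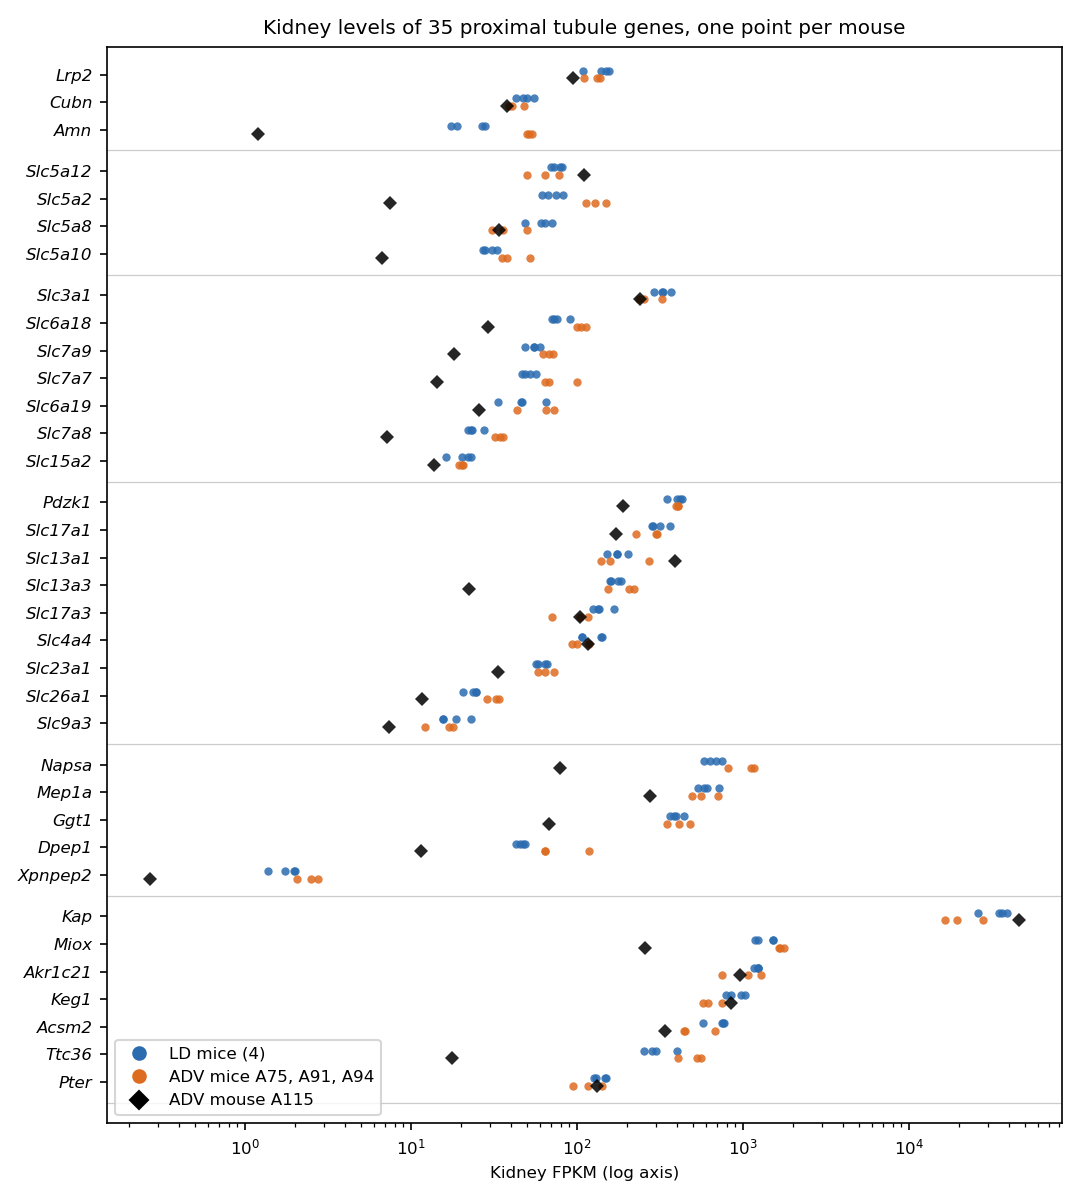
Kidney FPKM (log axis) of the 35 genes, grouped by role and ordered within each group by the LD mean, with 1 point per mouse: blue for the 4 LD mice, orange for A75, A91 and A94, and a black diamond for A115. A115 was the lowest of the 8 kidneys for 25 genes and the highest for Kap, Slc13a1 and Slc5a12.

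The liver served as contrast. Under LD, 33 of the 35 members were higher in the kidney than in the liver of the same mice (limma, adjusted p between 4.97e-18 and 9.15e-05, 16 libraries), beside 55.5% of the 14968 genes tested for this contrast. The exceptions were Slc26a1, which carries sulfate and oxalate, with 23.5 ± 1.85 FPKM in the kidney and 26.1 ± 4.93 FPKM in the liver (adjusted p = 0.69), and Ttc36, a tetratricopeptide repeat protein, with 310.2 ± 63.8 FPKM in the kidney and 431 ± 35.6 FPKM in the liver (adjusted p = 0.60). These tests leave the order of the organs unsettled for both genes. Over the alternative fits 33 to 35 members passed, so both genes passed in at least 1 of those fits.

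In the LD livers 9 members had no fragment at all, and 5 of them, Slc5a10, Slc5a12, Slc6a18, Mep1a and Kap, had none in the ADV livers either. Against a floor of 3 fragments per library, the mean kidney level was at least 171349-fold higher for Kap, at least 14808-fold for Mep1a, the alpha subunit of the metallopeptidase meprin, and at least 11786-fold for Miox. The bound was at least 3630.0-fold for the sulfate carrier Slc13a1, 3198-fold for Slc5a12, 2789.6-fold for the neutral amino acid carrier Slc6a18, 1339-fold for the glucose carrier Slc5a2, 558-fold for Slc5a10 and 51.6-fold for Xpnpep2. Another 4 members, Slc5a8, Slc6a19, Slc7a9 and Slc9a3, had at most 3 fragments over the 4 LD livers together.

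Other members were present in both organs, with lower levels in the liver. The kidney mean was 4.73-fold the liver mean for Slc23a1, the vitamin C carrier, 6.05-fold for Keg1, 8.59-fold for Slc3a1 and 8.92-fold for Slc17a3, a carrier of organic anions and urate. It was 10.9-fold for Pter, a phosphotriesterase-related protein, 16.1-fold for Pdzk1 and 18.9-fold for the bicarbonate carrier Slc4a4. Slc15a2, a peptide carrier, measured 0.0205, 1.24, 2.37 and 0.533 FPKM in the LD livers, too wide a spread for a single fold. The light chain partner of Slc3a1, Slc7a9, did not share this pattern: it had 1 fragment over the 4 LD livers, where Slc3a1 had 38.5 ± 13.0 FPKM.

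**Figure D2:**
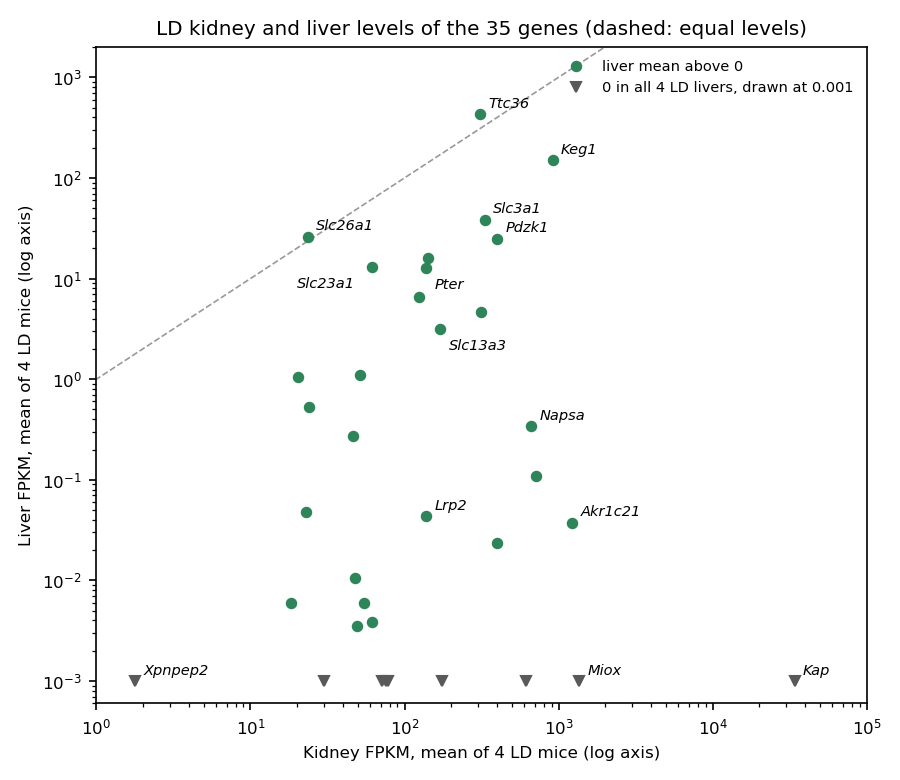
Mean FPKM over the 4 LD mice in the kidney (x, log axis) and in the liver (y, log axis) for the 35 genes, with the dashed line where both are equal and triangles for the 9 genes without a fragment in the LD livers. Ttc36 and Slc26a1 lie at or just above the line, and the other 33 genes lie below it.

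For 28 of the 35 members a stretch of 300 bases around the transcription start was at hand from RefSeq (GRCm38.p6). There was no entry for Slc5a2, Slc5a12, Slc6a18, Slc13a1, Slc23a1, Napsa and Ttc36. HNF4 factors are known to act on many proximal tubule and hepatocyte genes. The letters CAAAGTCC, of the HNF4 type, occurred on either strand in 3 of the 28 members (Slc3a1, Pdzk1 and Ggt1) and in 1.63% of all 27025 genes with such a stretch. It is a match of letters, and binding was not measured.

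The question put to the kidney was whether long-term ADV changed these genes. With all 8 mice, none of the 35 members passed limma at an adjusted p under 0.05, and none of the 14452 genes tested did (0%). At an unadjusted p under 0.05 there were 3 members lower in ADV, Slc5a8, Slc17a3 and Acsm2, beside 1.35% of all genes, and 0 higher, beside 1.75% of all genes. With limma-voom on the recovered fragments 0 members passed and 4 were lower at an unadjusted p under 0.05, beside 1.54% of all genes. The fold change was below 0 for 31 members and above 0 for 4, with a median of -0.24 on the log2 scale against -0.02 over all genes. The median standard error of a single member was 0.33. Without A115 the median of the members was 0.06, and 15 of 35 were below 0.

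The 3 endocytic receptor genes make up the machinery that takes filtered proteins out of the urine: megalin (Lrp2), cubilin (Cubn) and amnionless (Amn), which brings cubilin to the membrane. Lrp2 measured 155, 139, 109.6 and 149.9 FPKM in L63, L65, L86 and L104 and 133, 139, 110.4 and 95.2 FPKM in A75, A91, A94 and A115. The groups overlapped, and the fold change was -0.22 ± 0.18 (log2, SE; exact permutation p = 0.23, two-sided) and -0.12 ± 0.14 without A115. Cubn measured 55.4, 50.3, 43.1 and 47.5 FPKM under LD and 40.7, 48.0, 38.9 and 38.3 FPKM under ADV, with a fold change of -0.24 ± 0.14 and an exact permutation p of 0.086 (-0.21 ± 0.11 without A115). Amn parted from both. It measured 17.6, 19.0, 28.1 and 27.0 FPKM under LD, then 50.1, 53.6 and 51.4 FPKM in A75, A91 and A94, and 1.21 FPKM in A115. The mean of the other 7 kidneys was thus 29.2-fold the value of A115, while A75, A91 and A94 lay above every LD mouse. Its fold change was -0.13 with a 95% confidence interval from -2.78 to 2.53 with A115, and 1.20 ± 0.17 without it (adjusted p = 0.011).

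Among the carriers of sugars and monocarboxylates, Slc5a2 takes up most of the filtered glucose, Slc5a10 other hexoses, and Slc5a8 and Slc5a12 lactate and related acids. Slc5a2 measured 62.2, 66.7, 82.4 and 75.5 FPKM under LD and 113, 150.1, 129 and 7.51 FPKM under ADV. As with Amn, A115 was far below every LD mouse and the other 3 above every one. Its fold change was -0.16 ± 0.89 with A115 and 0.87 ± 0.13 without it (adjusted p = 0.011). Slc5a10 took the same order, with 27.3 to 33.1 FPKM under LD, 35.4 to 52.4 FPKM in 3 ADV mice and 6.73 FPKM in A115. Slc5a8 moved otherwise. It measured 71.4, 60.6, 48.9 and 64.1 FPKM under LD and 30.9, 50.4, 36.1 and 34.1 FPKM under ADV, with only A91 inside the LD range. The fold change of -0.70 ± 0.20 had the smallest unadjusted p among the members (0.0069; adjusted p = 0.9999; exact permutation p = 0.057, two-sided, n = 4 and 4), and without A115 it was -0.66 ± 0.18 (adjusted p = 0.040). Slc5a12 measured 78.8, 72.6, 81.6 and 69.9 FPKM under LD and 50.3, 78.7 and 64.3 FPKM in A75, A91 and A94, but 111 FPKM in A115, the highest of the 8. Its fold change was -0.05 ± 0.24, and -0.25 ± 0.15 without A115 (adjusted p = 0.24).

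The amino acid and peptide carriers had a median fold change of -0.05 with A115 and 0.35 without it. Slc3a1, which forms the cystine carrier with Slc7a9, measured 370.2, 333, 292 and 329 FPKM under LD and 237, 328, 254 and 240.5 FPKM under ADV. A91 lay among the LD mice and the other 3 below them, and the fold change was -0.33 ± 0.16 (exact permutation p = 0.057), and -0.29 ± 0.14 without A115 (adjusted p = 0.17). Slc7a9 lay above the LD mice in A75, A91 and A94 and below them in A115, with 48.9 to 59.8 FPKM under LD, 62.8 to 72.1 FPKM in A75, A91 and A94, and 18.2 FPKM in A115. Without A115, Slc6a18, a carrier of neutral amino acids, was higher in ADV by 0.46 ± 0.11, Slc7a8, the basolateral carrier of neutral amino acids, by 0.51 ± 0.10, and Slc7a7, that of cationic amino acids, by 0.57 ± 0.16, with adjusted p of 0.025, 0.017 and 0.041. With A115 their fold changes were -0.01, -0.05 and -0.03, and without A115 under median ratio scaling the calls were lost (adjusted p = 0.16, 0.071 and 0.10). Slc6a19, the main brush border carrier of neutral amino acids, measured 33.6 to 65.8 FPKM under LD and 25.6 to 73.2 FPKM under ADV, and Slc15a2 16.2 to 23.0 and 13.9 to 20.7 FPKM. The ranges overlapped for both.

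Among the 9 carriers of ions, acids, organic anions and vitamins and their scaffold, Slc17a3 alone of all 35 members had groups without overlap over the 8 mice. It measured 134, 137, 125 and 169 FPKM under LD and 104.5, 117, 71.0 and 104.5 FPKM under ADV, so that all ADV mice, A115 included, lay below all LD mice. This was the case for 1.83% of all genes, and the reverse, ADV above LD, for 0.962% of them and 0 members. The fold change of Slc17a3 was -0.52 ± 0.19 (adjusted p = 0.9999; exact permutation p = 0.029, the smallest that 4 against 4 allows), and -0.55 ± 0.18 without A115 (adjusted p = 0.063). Slc17a1, its neighbour in the family, measured 282 to 363 FPKM under LD and 172 to 304 FPKM under ADV, with overlap. Pdzk1 measured 404, 420.1, 348 and 429.7 FPKM under LD and 398, 409, 406 and 189 FPKM under ADV. Only A115 stood out, and the fold change of -0.26 ± 0.27 became 0.02 ± 0.11 without it.

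Slc13a1 was 1 of the 3 genes with the highest value in A115. It measured 151 to 203 FPKM under LD and 272, 159, 140.5 and 391 FPKM under ADV. Slc13a3, a dicarboxylate carrier of the same family, had its lowest value there, with 158 to 185 FPKM under LD, 154 to 220.2 FPKM in 3 ADV mice and 22.3 FPKM in A115. Slc26a1 was higher without A115 by 0.44 ± 0.10 (adjusted p = 0.023), and measured 20.8 to 24.7 FPKM under LD and 29.0 to 34.3 FPKM in A75, A91 and A94, against 11.7 FPKM in A115. Its call was lost under median ratio scaling (0.25, adjusted p = 0.14). Slc4a4, the basolateral bicarbonate carrier, measured 108 to 141 FPKM under LD and no more than 119 FPKM under ADV, and Slc9a3, the sodium-proton exchanger of the brush border, 15.6 to 23.1 and 7.38 to 17.9 FPKM. Slc23a1 measured 56.7 to 65.8 and 33.6 to 72.8 FPKM. Their groups overlapped, and with all 8 mice their p lay between 0.14 and 0.54.

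The peptidases break down peptides and glutathione at the brush border or in lysosomes. Napsa measured 633, 585, 695 and 750.3 FPKM under LD and 818, 1128, 1169 and 79.7 FPKM under ADV, with A115 10.4-fold below the mean of the other 7. Its fold change was -0.29 ± 0.81 with A115 and 0.63 ± 0.16 without it (adjusted p = 0.033). Dpep1, a membrane dipeptidase, measured 43.2 to 48.7 FPKM under LD, 64.8, 64.3 and 119 FPKM in A75, A91 and A94, and 11.5 FPKM in A115, and was higher by 0.78 ± 0.20 without A115 (adjusted p = 0.035). Under median ratio scaling both calls were lost, with 0.44 for Napsa (adjusted p = 0.11) and 0.59 for Dpep1 (adjusted p = 0.066). Mep1a measured 606, 587, 539.7 and 715 FPKM under LD and 562, 708, 496 and 276 FPKM under ADV, with a fold change of -0.33 ± 0.29 (exact permutation p = 0.34) and of -0.06 ± 0.16 without A115. Ggt1, the gamma-glutamyl transferase that opens glutathione breakdown, measured 364 to 444 FPKM under LD, 352 to 484 FPKM in 3 ADV mice and 68.0 FPKM in A115. Xpnpep2 measured 1.38 to 2.02 FPKM under LD, 2.07 to 2.75 FPKM in the same 3 mice and 0.27 FPKM in A115.

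All 7 enzymes and other kidney proteins had a fold change below 0 with all 8 mice, with a median of -0.39, and 0 of them passed the test. Acsm2, an acyl-CoA synthetase of medium-chain acids, measured 769, 759, 578 and 753 FPKM under LD and 448, 679.9, 441 and 339 FPKM under ADV. A91 lay within the LD range and the other 3 ADV mice below it, and the fold change was -0.62 ± 0.24 (adjusted p = 0.9999; exact permutation p = 0.057) and -0.47 ± 0.19 without A115 (adjusted p = 0.11). Kap measured 36301, 35098, 26080.2 and 38938 FPKM under LD and 16595, 28105, 19599.7 and 45922 FPKM under ADV. The ADV values thus held both the 2 lowest and the highest of the 8, and the fold change was -0.41 ± 0.42 (exact permutation p = 0.29). Without A115 it was -0.69 ± 0.38 (adjusted p = 0.22), and with median ratio scaling as well -0.88 ± 0.40 (adjusted p = 0.15). With all 8 mice it was -0.06 under quantile normalization, and without A75 it was -0.20. Keg1 measured 796 to 1034 FPKM under LD and 577, 753, 620.1 and 856 FPKM under ADV, and without A115 its fold change was -0.50 ± 0.15 (adjusted p = 0.0499), at the edge of the threshold.

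Akr1c21 was even under LD, with 1171 to 1243 FPKM, and measured 753, 1289, 1070.1 and 963 FPKM under ADV. Pter measured 127 to 150.4 FPKM under LD and 95.4 to 141 FPKM under ADV, with A115 at 132. Miox and Ttc36 had the same order as Amn and Slc5a2. Miox measured 1188 to 1520 FPKM under LD, 1664 to 1764 FPKM in A75, A91 and A94 and 259 FPKM in A115. Ttc36 measured 255 to 402 FPKM under LD, 407 to 558 FPKM in the same 3 mice and 17.7 FPKM in A115, and was higher without A115 by 0.69 ± 0.18 (adjusted p = 0.033), but not under median ratio scaling (0.50, adjusted p = 0.11).

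Counted over the 35 members, leaving out A115 gave 9 higher in ADV, beside 16.1% of the 14475 genes then tested, and 2 lower, beside 2.68%. The groups did not overlap for 13 members with ADV above LD, beside 24.8% of all genes, and for 2 with ADV below LD, Slc17a3 and Keg1, beside 8.04%. These counts moved with the scaling, since without A115 the median of all genes lay at 0.20. With libraries scaled by the median ratio, which brought that median to 0.02, 2 members were higher, Amn by 1.01 and Slc5a2 by 0.68, beside 8.31% of all genes. Then 3 were lower, Slc5a8 with a fold change of -0.85, Slc17a3 with -0.74 and Keg1 with -0.69, beside 7.70%. Amn, Slc5a2, Slc5a8 and Keg1 passed under both scalings.

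The order of the members in the ADV kidneys followed the base composition of their transcripts. For each ADV kidney the log2 deviation from the LD mean was set against the G and C content of the transcript. Over the 35 members Pearson's r was -0.89 in A115 (Spearman's rho -0.89), but 0.74 in A75, 0.80 in A91 and 0.71 in A94. In the LD kidneys, each set against the other 3, r lay between -0.39 and 0.31. Over all 13910 tested genes with a value, r was -0.68 in A115, 0.58 in A75, 0.57 in A91 and 0.37 in A94, so the members shared the pattern with the whole library. These correlations are across genes of 1 library, which share its RNA and preparation and are no independent replicates. Per 10 percentage points of G and C, the members' deviation changed by -1.91 in A115 and by 0.63, 0.54 and 0.73 in A75, A91 and A94. With the coding part alone, known here for 32 members, r was -0.90 in A115.

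A split of the members at the median G and C content of the tested genes shows the same. Of the 15 members above it, A115 was the lowest kidney for 15, beside 83.5% of all genes above it, and A75, A91 and A94 all lay above the LD mice for 11, beside 44.3%. Of the 20 members at or below it, A115 was lowest for 10, beside 28.2% of all such genes. The other 3 ADV mice all lay above the LD mice for 2 of the 20, beside 5.63%, and all below them for 2, beside 15.5%. Of the 9 members that were higher in ADV without A115, 8 were among the 15 rich in G and C, Slc6a18 being the exception, and both that were lower were among the 20 poor in them.

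**Figure D3:**
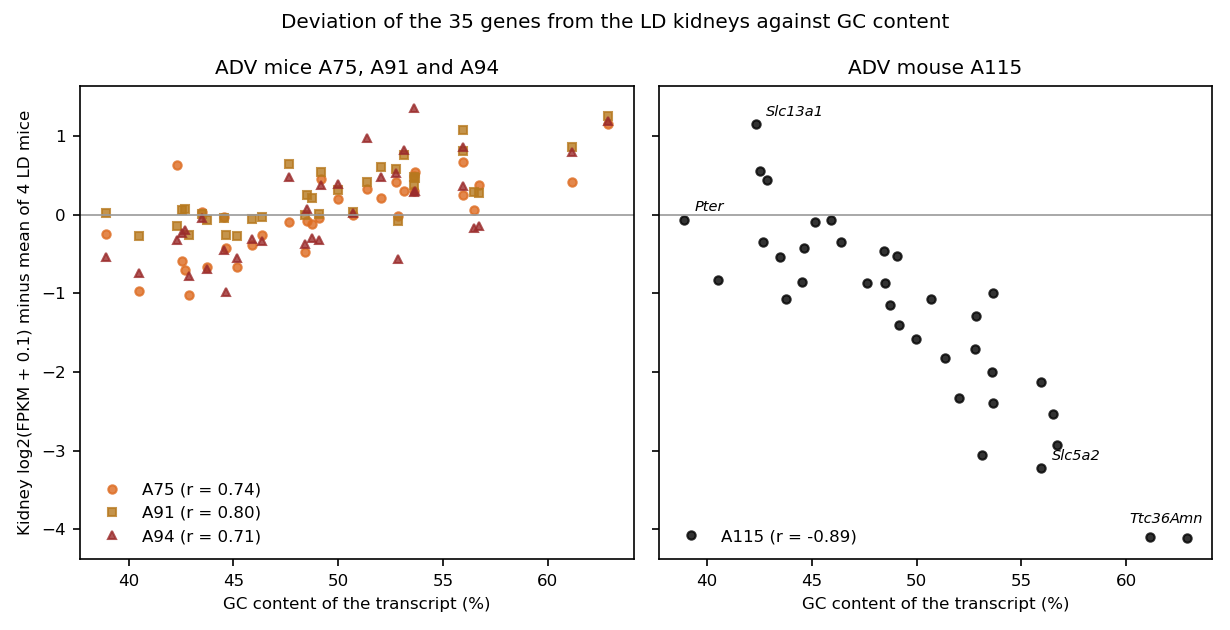
Deviation of each of the 35 genes in the ADV kidneys from the mean of the 4 LD kidneys (y, log2 of FPKM + 0.1) against the G and C content of its transcript (x, percent), for A75, A91 and A94 on the left and A115 on the right. The points climb with G and C content in the first 3 mice (r between 0.71 and 0.80) and descend in A115 (r = -0.89), where Amn and Ttc36 lie lowest and Slc13a1 highest.

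When the trend on G and C content was taken out of each kidney library, a step chosen after the data had been seen and one that also takes out any group difference that follows base composition, no gene passed with all 8 mice (0% of 13910) nor without A115 (0 of 13929, with 18.9% at an unadjusted p under 0.05). Of the members, 5 then had an unadjusted p under 0.05 with all 8 mice, and all 5 were lower in ADV, beside 3.43% of all genes: Slc5a8 (-0.67), Slc13a3 (-0.59), Ggt1 (-0.58), Slc17a3 (-0.50) and Slc9a3 (-0.46). Without A115 there were 9, with Amn (0.33), Slc5a2 (0.40), Slc6a18 (0.36) and Slc7a7 (0.37) higher and Slc5a8 (-0.47), Slc17a3 (-0.49), Slc9a3 (-0.50), Ggt1 (-0.44) and Keg1 (-0.45) lower. Amn, with 1.20 before, kept 0.33, and Ttc36 went from 0.69 to -0.08. The smallest adjusted p of a member was 0.19.

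**Figure D4:**
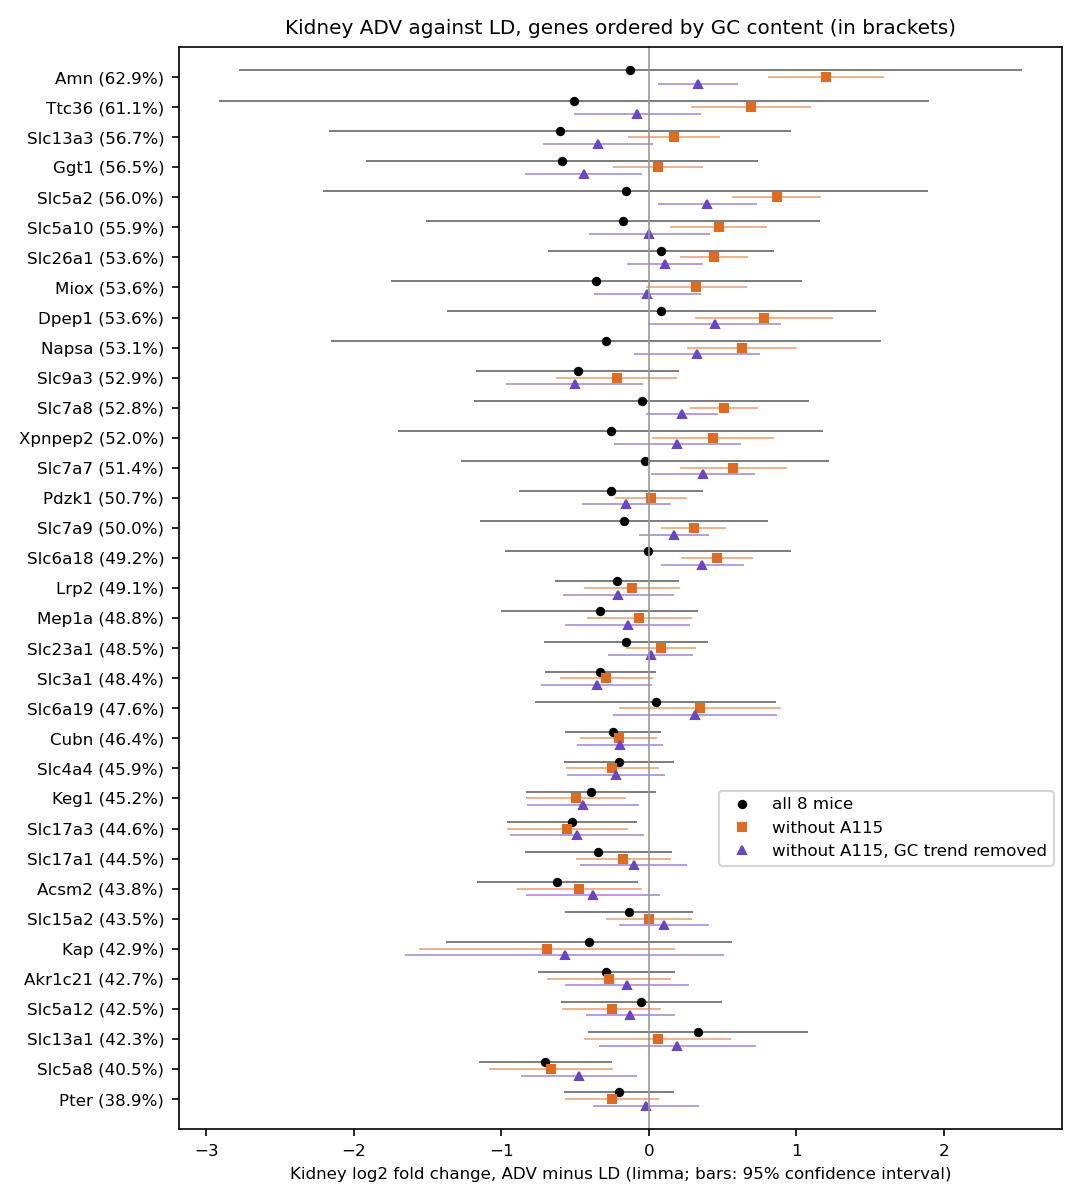
Kidney log2 fold change of ADV against LD for the 35 genes, ordered by the G and C content of the transcript (in brackets), with all 8 mice (black), without A115 (orange) and without A115 after removal of the trend on G and C content (violet). Bars are 95% confidence intervals from limma. The black bars widen toward the top, reaching from -2.78 to 2.53 for Amn, while Slc5a8 and Slc17a3 lie below 0 in all 3 settings.

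Markers of the other kidney cells and of tubule injury varied between mice as well. The 9 injury genes, which tubule cells are known to switch on after damage, summed to 810.1 to 3457 FPKM in the LD kidneys and 789 to 8918 FPKM in the ADV kidneys, with L86, A75 and A115 at the upper end. Spp1, osteopontin, made up most of each sum. It measured 2676, 6636 and 8133 FPKM in L86, A75 and A115 and 563 to 786 FPKM in the other 5. Havcr1, the kidney injury molecule, measured 110.9, 110.9 and 123 FPKM in the same 3 and 3.07 to 12.6 FPKM elsewhere. Lcn2, Krt20, Sox9 and Clu were also highest in these 3, but Krt8, Krt18 and Vcam1 were not. Krt8 was lowest of all in A115 (28.9 FPKM). In A94, Krt18 lay above A115 (19.1 against 17.5 FPKM) and Vcam1 above A75 (24.1 against 21.0 FPKM). The 8 leukocyte markers summed to 243 to 686 FPKM under LD and 221 to 2454 FPKM under ADV, highest in A94. In A115 the 7 collecting duct principal cell markers summed to 26.8 FPKM against 133 to 372 FPKM in the other kidneys, the 5 distal convoluted tubule markers to 148 FPKM against 274 to 420.1 FPKM, and the 7 markers of the thick ascending limb to 1432 FPKM against 1996 to 2970.4 FPKM. Each collecting duct marker was lowest in A115, but the other 2 lists were mixed. Of the thick ascending limb, Ptger3 (36.1 FPKM) and Cldn10 (158 FPKM) were highest there, and Slc12a1 (273 FPKM) lay within the LD range. Calb1 of the distal convoluted tubule (106 FPKM) did so too. In A75, A91 and A94 the collecting duct and distal convoluted tubule markers summed to 262 to 372 FPKM and 383 to 420.1 FPKM, above every LD kidney (133 to 235 and 274 to 334 FPKM), the order also seen in Amn and Slc5a2. No gene of these lists passed the test with all 8 mice. Without A115, 3 of the 7 collecting duct markers (Aqp2, Aqp3 and Avpr2) and 2 of the 5 distal convoluted tubule markers (Pvalb and Wnk4) were higher in ADV, beside 16.1% of all genes in that fit. Under median ratio scaling, with 8.31% of all genes higher, Aqp3, Avpr2 and Pvalb still passed. Without A115 and with the trend on G and C content removed, 0 genes of either list passed, as over all genes. The part of injury, leukocytes or distal cells in the members' values was not tested.

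In the liver 18 members were abundant enough to be tested. None passed at an adjusted p under 0.05, where 0.00779% of the 12835 genes did, and limma-voom also gave 0. At an unadjusted p under 0.05 there were 6 members higher in ADV, Pter, Slc4a4, Slc17a1, Slc3a1, Slc7a7 and Slc13a3, beside 8.65% of all genes, and Keg1 was lower, beside 3.13%. With limma-voom 5 were higher at that p, beside 8.01%, and 1 was lower, beside 3.08%. The median fold change of the 18 was 0.53 on the log2 scale, against 0.10 over all genes.

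Pter measured 12.6, 13.6, 13.9 and 11.1 FPKM in the LD livers and 24.9, 17.0, 19.5 and 21.4 FPKM in the ADV livers (fold change 0.68 ± 0.13, adjusted p = 0.23). Slc4a4 measured 6.04, 6.28, 7.30 and 6.69 FPKM under LD and 9.99, 8.54, 7.74 and 9.88 FPKM under ADV (0.45 ± 0.12, adjusted p = 0.30). In both every ADV liver lay above every LD liver, as for 6.94% of all genes, and 0 members had the reverse, beside 1.89%. The exact permutation p was 0.029 for each, the smallest possible with 4 and 4 mice. Keg1 measured 167, 172, 112 and 154 FPKM under LD and 133, 102, 76.5 and 116 FPKM under ADV, a fold change of -0.51 ± 0.19 (adjusted p = 0.38). Slc3a1 measured 27.3, 31.3, 56.8 and 38.8 FPKM under LD and 81.9, 49.7, 49.9 and 50.0 FPKM under ADV, with L86 above 3 of the 4 ADV livers and the other 3 LD livers below all of them.

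Some members of low liver level were raised in 1 mouse. In the liver of A94, Napsa measured 8.38 FPKM against 0.25 to 0.77 FPKM in the other 7 livers, Dpep1 3.31 FPKM against 0.13 to 0.64, Slc7a8 2.71 FPKM against 0.40 to 0.92, Acsm2 0.80 FPKM against 0.06 to 0.30, and Slc7a7 3.23 FPKM against 0.97 to 1.69. The leukocyte markers summed to 931 FPKM in that liver and to 126 to 235 FPKM in the others, and their part in these values was not tested. Kap, the most abundant kidney member, was at 0 in the A94 liver. Of the other kidney markers, Umod measured 1.33 FPKM there and at most 0.016 FPKM in the other livers, and Pvalb 0.29 against 0 FPKM. Kidney material in that sample was not tested. Without A94 the fold change of Napsa went from 1.42 to 0.47. The liver deviations had weaker correlations with base composition than the kidney ones. In the ADV livers r lay between -0.28 and 0.28 over the 18 members and between -0.25 and 0.054 over all genes. Per 10 percentage points of G and C, the members' deviation changed by 0.70 in A94. In A75, A91 and A115 it changed by -0.33, 0.19 and -0.19.

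**Figure D5:**
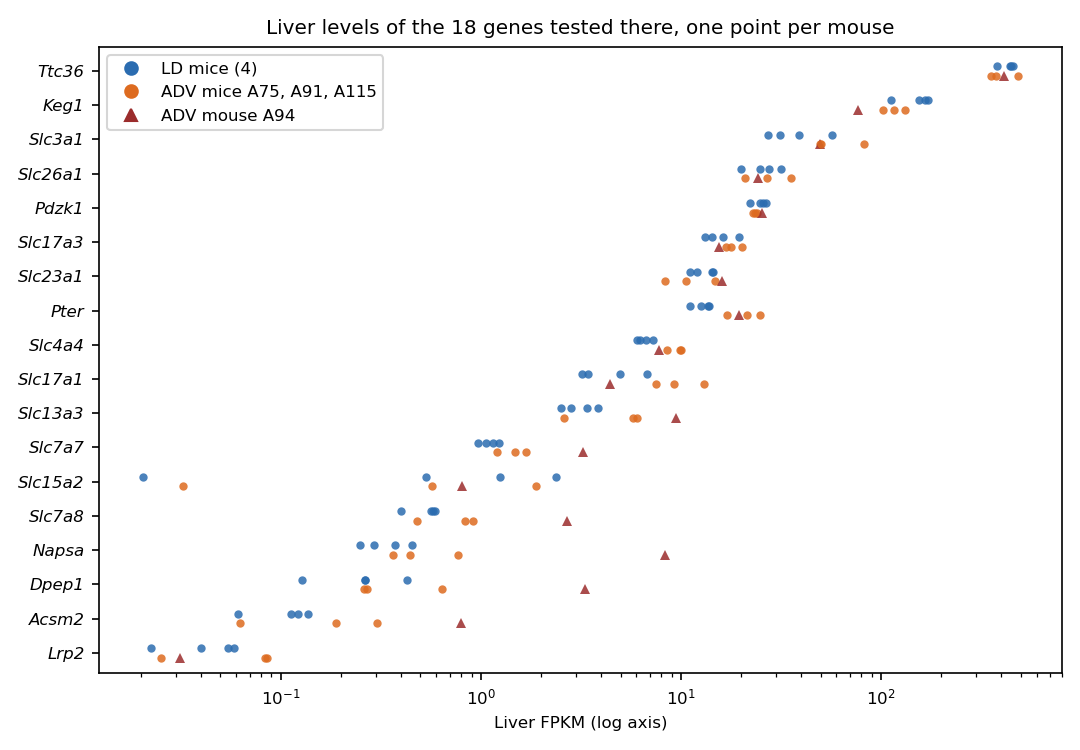
Liver FPKM (log axis) of the 18 genes tested in the liver, ordered by the LD mean, with 1 point per mouse: blue for the 4 LD mice, orange for A75, A91 and A115 and a red triangle for A94. Pter and Slc4a4 have all ADV points to the right of all LD points, and A94 stands alone for Napsa, Dpep1 and Slc7a8.

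Whether the ADV effect differed between the organs was tested in 1 model of all 16 libraries. Of the 18 members none passed, nor did any of the 12319 genes tested (0%). At an unadjusted p under 0.05 there were 6 members, and in each the change in the kidney lay below that in the liver, as for 2.99% of all genes. These were Pter with a difference of -0.89 ± 0.21 (log2, kidney minus liver; adjusted p = 0.9999), Slc4a4 with -0.65, Slc3a1 with -0.94, Slc17a3 with -0.68, Slc17a1 with -1.19 and Acsm2 with -1.43. Without A115 the difference for Pter was -0.91 ± 0.21 (adjusted p = 0.034), the kidney then lying below the liver in 0.812% of all genes at this threshold. Scaling those libraries by the median ratio gave an adjusted p of 0.045 for it, beside 1.64% of all genes. The other 17 did not pass in either setting. Pter has the lowest G and C content of the members. With the trend on it removed, the kidney fold change of Pter without A115 went from -0.25 to -0.018. Its liver fold change went from 0.68 to 0.53. The difference between the organs was not tested after that step.

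Genes of the same cells outside the 35 were described from 5 lists. Among 18 other carriers tested in the kidney, 0 passed with all 8 mice, and the median fold change was -0.33. The highest was Slc27a2, a fatty acid carrier, with 1643 to 2022 FPKM under LD and 1320.5 to 1910 FPKM under ADV. Slc7a13, the cystine carrier of the late proximal tubule, had the smallest p, 0.029, with a fold change of -0.73 ± 0.27 (-0.56 without A115). Without A115, 5 were higher, among them the phosphate carriers Slc34a1 by 0.63 and Slc34a3 by 0.68 and the urate carrier Slc22a12 by 0.58, and 0 were lower, beside 16.1% and 2.68% of all genes. Under median ratio scaling 0 of the 18 were called. Slc34a1 had the order of Slc5a2: 801 to 992 FPKM under LD, 1293 to 1553 FPKM in A75, A91 and A94, and 154 FPKM in A115.

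Of 13 partners of the endocytic receptors and carriers 0 passed, the median was -0.21, and Clcn5, the endosomal chloride exchanger, had the smallest p (0.068) with -0.48 ± 0.23 (-0.40 without A115). Fxyd2, a subunit of the sodium pump, was the highest, with 1994 to 2276 FPKM under LD, 2350.2 to 3265 FPKM in A75, A91 and A94, all above the LD kidneys, and 373 FPKM in A115. Of 15 further brush border genes 0 passed, with a median of -0.22. There Enpep, glutamyl aminopeptidase, had the smallest p (0.021), with -0.37 ± 0.13 (-0.40 without A115), and Alpl, alkaline phosphatase, the highest level, 99.5 to 132 FPKM under LD, 126 to 147 FPKM in A75, A91 and A94 and 43.5 FPKM in A115. Of 16 further enzymes 0 passed, with a median of -0.30. Glyat, glycine N-acyltransferase, had the smallest p (0.012) with -0.56 ± 0.17 (-0.61 without A115). Of 5 transcription factors 0 passed, with a median of -0.34. Ppara had the smallest p (0.038) with -0.72 ± 0.29 (-0.43 without A115), and Hnf4a the highest level, 143 to 195 FPKM under LD, 155 to 186 FPKM in A75, A91 and A94 and 74.3 FPKM in A115. Without A115 the counts higher and lower were 0 and 2 of the brush border genes (Dpp4 and Enpep) and 0 and 3 of the enzymes (Pck1, Cyp2j5 and Glyat), and among the factors Ppara was lower, beside 16.1% of all genes higher and 2.68% lower. Under median ratio scaling, with 8.31% of all genes higher and 7.70% lower, they were 0 and 3 of the brush border genes (Anpep besides) and 0 and 5 of the enzymes (G6pc and Cyp2e1 besides), and Ppara was again lower. After removal of the trend on G and C content 0 genes of the 5 lists passed.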

How the data were processed

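RNA of 16 libraries was analysed. Per the methods, adaptors were removed by the authors using Trimmomatic, STAR (2.5.4b in the submitters' processing notes) aligned the pairs to mm10, SAMtools discarded reads of a mapping quality under 10, and Homer counted over exons of the UCSC known canonical set. The deposited values are FPKM, although the column names say RPKM, and were divided by the library total only. Multiplied by exon length and total, 100% of the values above 0 came out in steps of 0.5 fragment (within 0.01). Libraries came from 2 providers, and which library came from which is not given in the sources used here. The paper's count test was not run.

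Genes above a mean of 0.5 CPM, computed from the recovered fragments, in an organ were tested in R 4.3.3 with limma 3.58.1 on log2(FPKM + 0.1), a scale that understates changes of low genes, with a trend in the variance prior and Benjamini-Hochberg adjustment over all tested genes. Exact permutations ran over the 70 assignments of 4 of 8 mice. Kidney and liver came from the same mice, and the correlation of their deviations from the group means over 12319 genes was 0.0982 to 0.185 in the LD mice and -0.0242, 0.334, 0.553 and 0.0423 in A75, A91, A94 and A115. The p-values measure the spread between mice.

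G and C content was read from the GENCODE vM21 transcript (GRCm38) of the same symbol with the closest length, found for all 35 members and 96.2% of the genes tested in the kidney. For Slc6a19, Napsa and Miox that transcript is annotated without a coding part. The trend was a loess fit (span 0.5) of each library's deviation from the gene mean. The members and lists were chosen with earlier results of these data known. Values of every mouse are printed for the member with the highest mean over the 8 kidneys and that of the smallest kidney p in each role group and for members whose kidney groups did not overlap. Amn, Slc5a12 and other members with such values were added after their values were seen. The confidence intervals are limma's and rest on the spread between mice, while the floors cover counting error only. Some results are not reported here.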

Additional observations from a re-analysis of the deposited data

Results flagged for a closer look

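Of 106 sets of 4 libraries, 1 member in 1 group each, 12 held a value far from the other 3 by Dixon's ratio, where chance alone marks about 1 in 20. The share of all genes marked in this way was not computed, so the counts do not single out the members. A115 was the lowest kidney for 83.5% of all tested genes above the median G and C content. In the kidney of A115 there were 6: Amn at 1.21 FPKM against 50.1 to 53.6 in the other ADV kidneys, Slc6a18 at 29.2 against 100.5 to 113, Slc7a8 at 7.23 against 32.1 to 35.8, Slc15a2 at 13.9 against 19.6 to 20.7, Pdzk1 at 189 against 398 to 409, and Miox at 259 against 1664 to 1764. In the kidney of L86, Acsm2 was at 578 FPKM against 753 to 769 in the other LD kidneys, and Akr1c21 at 1171 against 1234 to 1243. L86 is also the LD kidney with the highest injury markers, and their part in these values was not tested.

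In the livers 4 were found. Slc7a8 was at 0.401 FPKM in L63 against 0.563 to 0.591 in the other LD livers. Slc3a1 was at 81.9 FPKM in A75 against 49.7 to 50.0 in the other ADV livers. In A94, Dpep1 was at 3.31 FPKM against 0.26 to 0.64, and Napsa at 8.38 against 0.37 to 0.77.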

How the results depend on the processing

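With all 8 mice the count of members called in the kidney was 0 under every alternative scaling, pseudocount, filter and fit that was run. Leaving out 1 mouse gave 0 to 11, where the 11 came without A115, and leaving out A115 with scaling by the median ratio gave 5. In the same 2 settings the count for the difference between the organs was 1 (0 to 1 over the mice left out), and it was 0 otherwise. The liver count was 0 and the kidney against liver count 33 to 35 throughout. With the mouse as a replicate block, for kidney and liver of 1 mouse as a pair, these counts were 0 and 33, the kidney and liver counts were 0 and 0, and no call changed. The liver median of 0.53 became 0.32 with a pseudocount of 1 and 0.17 without a filter on low values, which adds the members near 0.

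Without A115 the kidney fold changes of Slc5a2 and Napsa turned from -0.16 to 0.87 and from -0.29 to 0.63, and that of Pdzk1 from -0.26 to 0.017. Over the mice left out they ranged from -0.57 to 0.87, from -0.66 to 0.63 and from -0.35 to 0.017. With scaling by the median ratio as well, those of Slc5a2 and Napsa were 0.68 and 0.44, and with the trend on G and C content removed 0.40 and 0.33, while that of Pdzk1 was below 0 again (-0.17 and -0.15). The liver value of Lrp2, 0.10, became -0.025 with quantile normalization and -0.0060 without A115 under median ratio scaling. Slc5a8 kept its direction in 22 of 22 alternatives, between -0.85 and -0.47, and Slc17a3 between -0.74 and -0.37. The median standard error of a single member in the kidney was 0.33 with 4 mice a group and 0.15 without A115, with 4 LD and 3 ADV mice.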

Other observations

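Among the stromal markers, in the kidney Col1a1, a fibrillar collagen, measured 1.37, 1.86, 5.17 and 1.57 FPKM under LD and 12.6, 2.46, 16.5 and 8.64 FPKM under ADV, and Col3a1 2.67, 4.02, 9.92 and 2.85 FPKM under LD and 30.3, 4.19, 29.1 and 33.3 FPKM under ADV. A91 lay within the LD range for both and the other 3 ADV mice above it. The fold changes were 1.88 ± 0.64 and 2.14 ± 0.72 (log2, SE), and neither passed limma after adjustment (adjusted p = 0.9999 for each). Without A115 they were 1.86 and 1.87 (adjusted p = 0.085 and 0.10). The 5 stromal markers had a median fold change of 0.83 in the kidney and 1.91 in the liver, and 0 passed in either organ. In the liver Col1a1 and Col3a1 were highest in A94, at 11.4 and 67.0 FPKM against at most 2.07 and 6.85 FPKM in the others. Of 5 podocyte, 6 endothelial and 5 intercalated cell markers 0 passed in the kidney, with medians of -0.10, -0.14 and -0.10 (0.19, -0.03 and -0.02 without A115, where 1 of each list was higher, beside 16.1% of all genes). Adipocyte markers summed to 2.81 to 9.16 FPKM in the kidneys.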
